A study of Mus musculus with 6 samples.

Results

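Amino acids cross membranes through solute carriers, and the genes described here are those of the SLC1, SLC3, SLC7, SLC36, SLC38 and SLC43 families on a mouse expression array. The members were all genes whose only platform symbol starts with Slc1a, Slc3a, Slc7a, Slc36a, Slc38a or Slc43a followed by a digit, without Slc7a11 and Slc38a2. The rule gave 40 of 18193 named genes. Of these, 38 are carriers, and 2, Slc7a6os and Slc36a1os, are transcripts named for lying opposite a carrier gene. RefSeq lists Slc7a6os as protein-coding and Slc36a1os as a long non-coding RNA.

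The cells were C2C12, an established line of mouse myoblasts that can fuse into myotubes. Cells of the pyruvate group were seeded in 100 mm dishes in DMEM made without sodium pyruvate and then given 50 mM of it, and untreated cells in a basal DMEM whose own pyruvate content the labels leave unstated. Both groups had 10% fetal bovine serum, 4 mM glutamine and 1% antibiotics for 72 h, and each had 3 samples with 1 array per sample. A control with added sodium or osmolyte alone was not analysed here, so pyruvate and the added salt load cannot be told apart.

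The families divide by how they move their cargo. SLC1 carriers use the sodium gradient to take up glutamate or small neutral amino acids. An SLC7 light chain transports as a pair with an SLC3 heavy chain, which brings it to the cell surface. CD98, the heavy chain Slc3a2, with LAT1, the light chain Slc7a5, exchanges glutamine for leucine and other large neutral amino acids and so feeds the growth kinase complex mTORC1. The cationic carriers of SLC7 work without a heavy chain, SLC36 carriers use protons, SLC38 carriers mostly use sodium, and SLC43 holds further leucine carriers. In muscle, leucine and glutamine uptake are linked to protein synthesis. Several carrier genes are induced by the transcription factor ATF4 when amino acids are short.

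Values are MAS5 signals, the brightness of a probe set on a linear scale as the authors normalized it. Each gene is given by its brightest probe set, and a probe set was tested if its mean log2(signal + 16) over the 6 arrays was at least 5.53, a signal of about 30.3. On that rule 21 members were tested and 19 were not. Log2 changes are pyruvate minus untreated, on the log2(signal + 16) scale, with adjusted p-values from limma over the whole set of 22519 tested probe sets and called below 0.05. Whether the triplicates came from separate cultures is not labelled, so these p-values reflect only sample-to-sample spread, which may be technical. In such bulk RNA, fewer cells of a type and less RNA per cell cannot be told apart.

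As a check on the cells, all 6 myoblast markers were above the signal filter, of which 2 rose, 3 fell and 1, Des, did not pass. Myod1 (mean signal 1525 with pyruvate, 1268 in untreated cells) and Ncam1 rose by 0.26 and 0.17, while Myf5 (527 with pyruvate, 830 in untreated cells), Cdh15 and Itga7 were lower, with log2 changes of -0.655, -0.39 and -0.215. Their summed signal was 7248 to 7489 with pyruvate and 8051 to 8342 in untreated cells. The summed signal of 6 myotube markers was 551 to 740 with pyruvate, against 4628 to 4983 in untreated cells, and 5 of the 6 fell. Its part in the changes below was not tested. Sums for macrophage (4 genes) and neural (3) markers overlapped between the groups, as did those of the 2 adipocyte genes, while 3 endothelial genes (32.6 to 44.7 with pyruvate, 50.3 to 63.4 in untreated cells) and 3 epithelial genes (86.8 to 126 with pyruvate, 153 to 165 in untreated cells) did not. Of these 15 genes, 5 were above the signal filter. Epcam (epithelial, 84.6 with pyruvate, 125 in untreated cells) and Kdr (endothelial, 25.8 with pyruvate, 40.4 in untreated cells) fell. Their adjusted limma p-values were 0.015 and 0.043. Without the signal filter they were 0.051 and 0.13, so neither gene was called. The Kdr signals with pyruvate were 26.1, 27.5 and 23.7, all below the filter level. Kdr was therefore tested only through its untreated arrays. Csf1r, Cd68 and Rbfox3 did not pass. The other 10, with Ptprc, Pecam1, Cdh1, Adipoq and Snap25 among them, were below the signal filter.

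Of the 21 tested members, 2 were higher with pyruvate, Slc1a4 and Slc3a2, and 2 were lower, Slc7a5 and Slc38a6. The other 17 did not pass, which does not show that they kept their level, and 19 were too dim to be tested. The 4 called members are 19.0% of those tested, against 35.1% of all 10685 genes tested. By direction, 20.7% of all genes were called higher and 14.5% lower, against 2 of 21 members each way. In 7 of the 21 members the 3 pyruvate arrays lay wholly above or below the 3 untreated arrays, against 48.6% of all genes. The median log2 change of the tested members was 0.00, beside 0.03 over all genes tested, with 11 members above 0 and 10 below. These are counts and medians, and the difference from other genes was not tested.

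**Figure D1:**
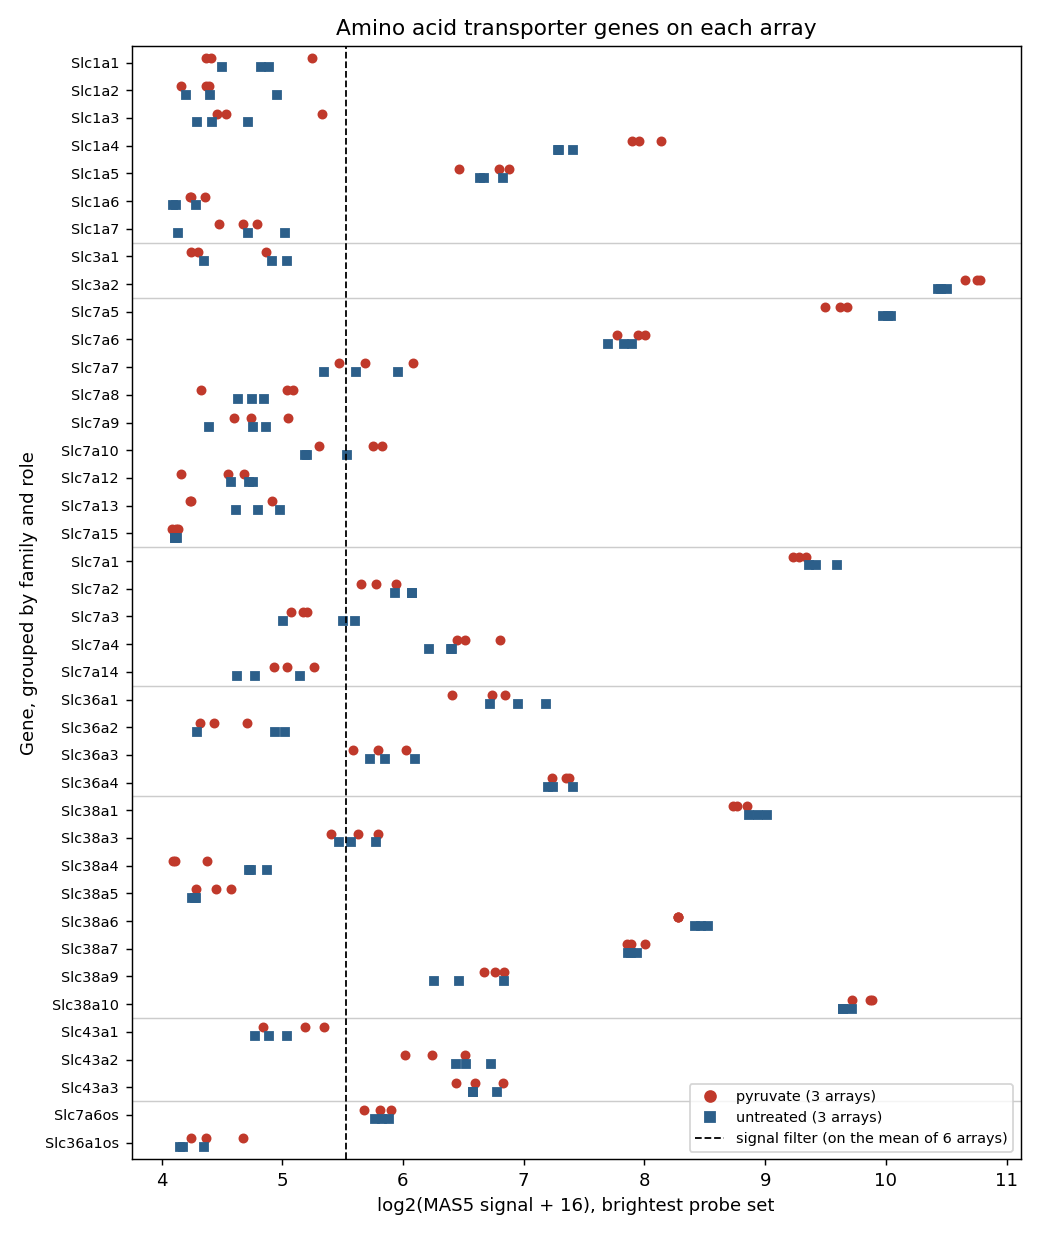
Each row is 1 of the 40 genes, grouped by family and role, and the horizontal axis is log2(MAS5 signal + 16) of its brightest probe set, with 3 pyruvate arrays as circles and 3 untreated arrays as squares. The dashed line at 5.53 is the signal filter, applied to the mean of 6 arrays: 21 genes lie above it, and levels are to be compared within a row only, since probe sets differ in brightness for the same amount of RNA.

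The promoters of the called genes are given as a description of their sequence. Any part of ATF4 in the changes of these genes was not tested. A RefSeq promoter window (build GRCm38.p6, 250 bases before to 50 after the start of the gene, 5′ to 3′ on the strand of the gene) was at hand for 29 of the 40 members and for Slc1a4, Slc3a2 and Slc38a6 among the called ones. Slc7a5 had none. Capitals mark any match to 4 motifs searched on both strands: the amino acid response element core TGATGNAA, at which ATF4 binds, the E-box CACGTG, the antioxidant response element core TGACNNNGC, and the cAMP response element TGACGTCA. The Slc1a4 window is chr11:20332664-20332963 (minus strand), that of Slc3a2 is chr19:8713848-8714147 (minus strand) and that of Slc38a6 is chr12:73286598-73286897 (plus strand).
Slc1a4: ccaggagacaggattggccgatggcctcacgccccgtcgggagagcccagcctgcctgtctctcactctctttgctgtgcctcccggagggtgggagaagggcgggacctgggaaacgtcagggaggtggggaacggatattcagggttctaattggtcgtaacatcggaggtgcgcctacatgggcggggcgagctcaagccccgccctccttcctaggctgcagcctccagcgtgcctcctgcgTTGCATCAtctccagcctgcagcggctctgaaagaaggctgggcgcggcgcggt
Slc3a2: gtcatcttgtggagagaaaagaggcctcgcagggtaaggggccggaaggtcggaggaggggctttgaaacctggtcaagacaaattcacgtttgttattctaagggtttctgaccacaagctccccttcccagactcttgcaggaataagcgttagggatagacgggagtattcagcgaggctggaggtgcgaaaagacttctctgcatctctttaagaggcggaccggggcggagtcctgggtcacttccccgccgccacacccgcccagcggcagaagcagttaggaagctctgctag
Slc38a6: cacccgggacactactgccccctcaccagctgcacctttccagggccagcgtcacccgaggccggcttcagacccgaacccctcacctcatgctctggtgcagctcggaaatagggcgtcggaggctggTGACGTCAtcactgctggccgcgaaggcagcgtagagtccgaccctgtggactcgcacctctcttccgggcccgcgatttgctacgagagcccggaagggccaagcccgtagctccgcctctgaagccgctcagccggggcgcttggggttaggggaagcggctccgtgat

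The Slc1a4 window held 1 match to the amino acid response element core, TTGCATCA on this strand, at bases 247 to 254 of the 300, across the start itself. Among all 32851 windows, 3.97% held that core, and among members it was found in windows of Slc1a4 and Slc7a7. The Slc38a6 window held the cAMP response element at bases 130 to 137, which 1.79% of all windows hold. The Slc3a2 window held none of the 4. The E-box was in 7.15% of all windows and the antioxidant core in 12.4%, and neither was in the 3 windows printed. Each printed window with a match held only 1, so no matches overlapped there. A match is a description of letters in this window and no evidence of binding.

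Among the SLC1 carriers, Slc1a4 rose and its nearest functional relative did not pass. Slc1a4 encodes ASCT1, a sodium-dependent exchanger of alanine, serine, cysteine and threonine. Its signals were 266, 223 and 232 with pyruvate, against 154, 140 and 141 in untreated cells. Every pyruvate array was above every untreated array. The log2 change was 0.67 ± 0.08 (SE, adjusted p = 0.00014, limma), which was rank 213 from the top of the 10685 genes. Both other Slc1a4 probe sets rose as well, by 0.52 and 0.46 (adjusted p = 0.0015 and 0.0023, limma).

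Slc1a5 encodes ASCT2, a glutamine exchanger. It had signals of 72.1, 102 and 95.3 with pyruvate, against 83.7, 97.5 and 85.7 in untreated cells. The groups overlapped, and the log2 change was 0.00, its 95% interval running from -0.27 to 0.28 (adjusted p = 1, limma). The log2 value of Slc1a4 minus that of Slc1a5 was 1.29 ± 0.35 with pyruvate and 0.62 ± 0.16 in untreated cells (SD, n = 3 each). All 3 pyruvate arrays were above all 3 untreated ones (exact two-sided permutation p = 0.1, the smallest that 3 against 3 arrays allow). This was 1 of 4 pairs of members compared in this way, picked after their values were seen. Each pair gave an exact permutation p = 0.1, also when adjusted over the 4. Because of that choice, none of the 4 pairs adds support to the calls of its genes. The glutamate transporter genes of the family, Slc1a1, Slc1a2, Slc1a3, Slc1a6 and Slc1a7, were all below the signal filter.

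**Figure D2:**
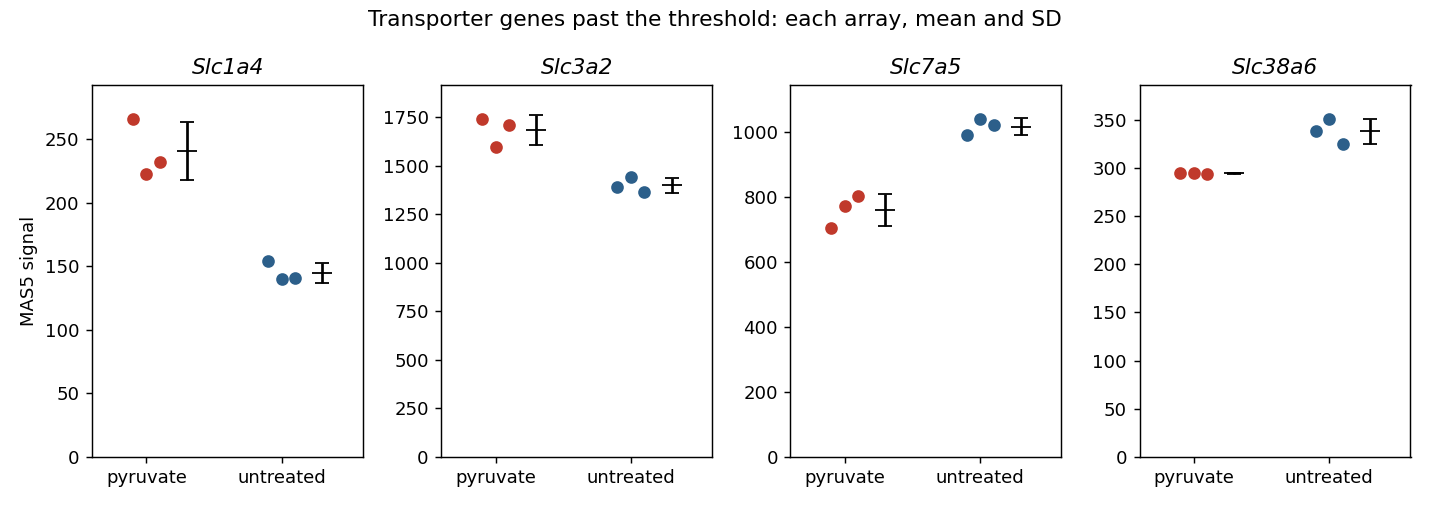
MAS5 signal on each array (vertical axes from 0, each gene with its own scale) for the 4 genes past the threshold, pyruvate arrays on the left and untreated on the right of each panel, with the mean and SD of 3 arrays beside them. Slc1a4 and Slc3a2 were above the untreated range on all 3 pyruvate arrays, and Slc7a5 and Slc38a6 below it.

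The subunits of the leucine exchanger moved in opposite directions. Slc3a2, the CD98 heavy chain, had signals of 1742, 1598 and 1711 with pyruvate, against 1388, 1440 and 1365 in untreated cells. Slc7a5, the LAT1 light chain, had signals of 705, 771 and 803 with pyruvate, against 989, 1040 and 1020 in untreated cells. For neither gene did the groups overlap. The log2 change was 0.27 ± 0.05 for Slc3a2 (SE, adjusted p = 0.0021, limma) and -0.41 ± 0.06 for Slc7a5 (SE, adjusted p = 0.00024, limma). Each has 1 probe set with its symbol alone, so no second probe set could be set beside it.

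Within each array the log2 value of Slc3a2 minus that of Slc7a5 was 1.29, 1.04 and 1.08 with pyruvate, against 0.48, 0.46 and 0.42 in untreated cells. The difference between groups was 0.68, and the groups did not overlap (exact two-sided permutation p = 0.1). A scaling factor common to an array cancels in this difference, apart from the added 16. With the 2 genes already separated in opposite directions when the pair was picked, separation of their difference was fixed in advance. It therefore adds no support to the 2 calls. The difference describes unequal change of the 2 transcripts and not their ratio in the cell.

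The other light chains did not pass. Slc7a6, which with CD98 exchanges cationic for neutral amino acids, averaged 224 ± 20.1 with pyruvate and 209 ± 15.7 in untreated cells (SD, n = 3 arrays each). Its log2 change was 0.10, within a 95% interval from -0.09 to 0.28. Its second probe set was at 0.22 (adjusted p = 0.11, limma). Set against Slc7a6, Slc3a2 changed by 0.17 (exact two-sided permutation p = 0.1). Slc7a7, a carrier of the same kind, was dim at 38.5 ± 12.0 with pyruvate and 34.5 ± 10.8 in untreated cells (SD, n = 3 arrays each), and the 95% interval of its log2 change ran from -0.32 to 0.54. Slc7a8 (the light chain LAT2), Slc7a9, Slc7a10, Slc7a12, Slc7a13 and Slc7a15 lay below the signal filter, and so did Slc3a1, the heavy chain with which Slc7a9 works in kidney. So among heavy and light chains, 4 of 11 members were bright enough to be tested, and 1 rose, 1 fell and 2 did not pass.

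None of the 3 tested cationic carriers passed, with 1 of the 3 at an unadjusted limma p below 0.05. That gene, Slc7a1, encodes CAT1, the widely expressed importer of arginine and lysine. Its signals were 605, 585 and 631 with pyruvate, against 644, 669 and 757 in untreated cells. Every pyruvate array was below every untreated one, and the log2 change was -0.18 ± 0.06 (SE, adjusted p = 0.058, limma). The adjusted limma p was 0.042 with the replicate number as a block, 0.13 without the signal filter and 0.19 with median centring. A second Slc7a1 probe set fell by 0.16 (adjusted p = 0.040), and the third was at -0.05 (adjusted p = 0.84). Slc7a2, an arginine carrier induced in macrophages, was at 39.5 ± 5.58 with pyruvate and 49.2 ± 3.64 in untreated cells, and Slc7a4 was at 80.6 ± 13.0 with pyruvate and 65.2 ± 5.87 in untreated cells (SD, n = 3 arrays each). Their log2 changes were -0.24 (adjusted p = 0.20) and 0.25 (adjusted p = 0.16). Slc7a3 and Slc7a14 were below the filter.

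The SLC38 family had 6 tested members, of which Slc38a6 fell and 5 did not pass. Slc38a6 encodes a member of the family of sodium-coupled neutral amino acid transporters. Its signals were 295, 295 and 294 with pyruvate, against 339, 352 and 325 in untreated cells. The groups did not overlap, and the log2 change was -0.19 ± 0.06 (SE, adjusted p = 0.029, limma). A dimmer second probe set fell by 0.45 (adjusted p = 0.047, limma). Its signals were 29.6, 27.6 and 30.2 with pyruvate, all below the level of the signal filter. In untreated cells they were 36.4, 59 and 43.1, so it was tested only through the untreated arrays. Without the filter this second probe set was not called (adjusted p = 0.15, limma). The call of the brightest probe set was close to the threshold. It was lost without pyruvate replicate 2 or 3 (adjusted p = 0.063 and 0.061) and without untreated replicate 1 or 2 (adjusted p = 0.088 and 0.11), and with the replicate number as a block (adjusted p = 0.052).

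Slc38a10 encodes a further family member, and its 6 tested probe sets all had log2 changes above 0. The brightest probe set was at 826, 931 and 919 with pyruvate, against 786, 827 and 785 in untreated cells, a log2 change of 0.15 ± 0.06 (SE, adjusted p = 0.059, limma), and the groups overlapped by 1 array, since the lowest pyruvate signal was just below the highest untreated one. Of its 5 other tested probe sets, 2 rose, by 0.36 and 0.25 (adjusted p = 0.0041 and 0.012), and 3 were at 0.33, 0.12 and 0.07 without passing.

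For Slc38a1 and Slc38a9 the probe sets pointed to different sides. Slc38a1 encodes SNAT1, an importer of glutamine and alanine. Its brightest probe set had signals of 420, 446 and 409 with pyruvate, against 500, 452 and 477 in untreated cells, so the groups did not overlap, at -0.16 ± 0.06 (SE, adjusted p = 0.065, limma). The other Slc38a1 probe set was at 0.14 (adjusted p = 0.24). Slc38a9 encodes a lysosomal protein that senses arginine for mTORC1. Its brightest probe set was at 92.3 ± 6.20 with pyruvate and 77.0 ± 19.4 in untreated cells (SD, n = 3 arrays each), or 0.24 higher on the log2 scale (adjusted p = 0.23). Of the 3 other tested Slc38a9 probe sets, 1 fell by 0.38 (adjusted p = 0.040) and the rest were at -0.08 and 0.02.

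Slc38a7, which exports glutamine from lysosomes, averaged 226 ± 13.2 with pyruvate and 223 ± 6.46 in untreated cells (SD, n = 3 arrays each), and the 95% interval of its log2 change ran from -0.14 to 0.17. Set against Slc38a7, Slc38a6 changed by -0.21 (exact two-sided permutation p = 0.1). Slc38a3, the glutamine carrier SNAT3 of liver and kidney, was at 33.0 ± 6.50 with pyruvate and 32.8 ± 5.30 in untreated cells (SD, n = 3 arrays each), close to the filter.

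The SLC36 and SLC43 families had no called member among 3 and 2 tested, and none at an unadjusted limma p below 0.05. Slc36a1, the proton-coupled carrier PAT1 found on lysosomes, was at 86.1 ± 15.6 with pyruvate and 109 ± 20.2 in untreated cells, for a log2 change of -0.29 (95% interval -0.61 to 0.03). Slc36a4 was at 144 ± 8.07 with pyruvate and 140 ± 12.0 in untreated cells, and Slc36a3 at 40.2 ± 8.68 with pyruvate and 43.7 ± 8.02 in untreated cells. Slc43a2, the leucine and phenylalanine carrier LAT4, was at 61.2 ± 13.5 with pyruvate and 78.9 ± 9.74 in untreated cells, for a log2 change of -0.31 (95% interval -0.62 to 0.01). Its second probe set was at 0.06 (adjusted p = 0.75). Slc43a3, whose product carries purine nucleobases, was at 83.1 ± 13.5 with pyruvate and 84.6 ± 8.17 in untreated cells (SD, n = 3 arrays each, for all 5 genes). Slc36a2, a carrier of glycine and proline, and Slc43a1 (LAT3) were below the filter.

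Of the opposite-strand transcripts, Slc7a6os was at 39.7 ± 4.17 with pyruvate and 40.8 ± 2.25 in untreated cells (SD, n = 3 arrays each). Its log2 change was -0.03, and Slc36a1os was below the filter. Over all 17 members that did not pass, the half-width of the 95% interval ran from 0.125 for Slc38a10 to 0.43 for Slc7a7. In 6 of the 17 the interval reached past 0.5 on one side, so a change of that size was not resolved for them, while 3 had an unadjusted p below 0.05.

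**Figure D3:**
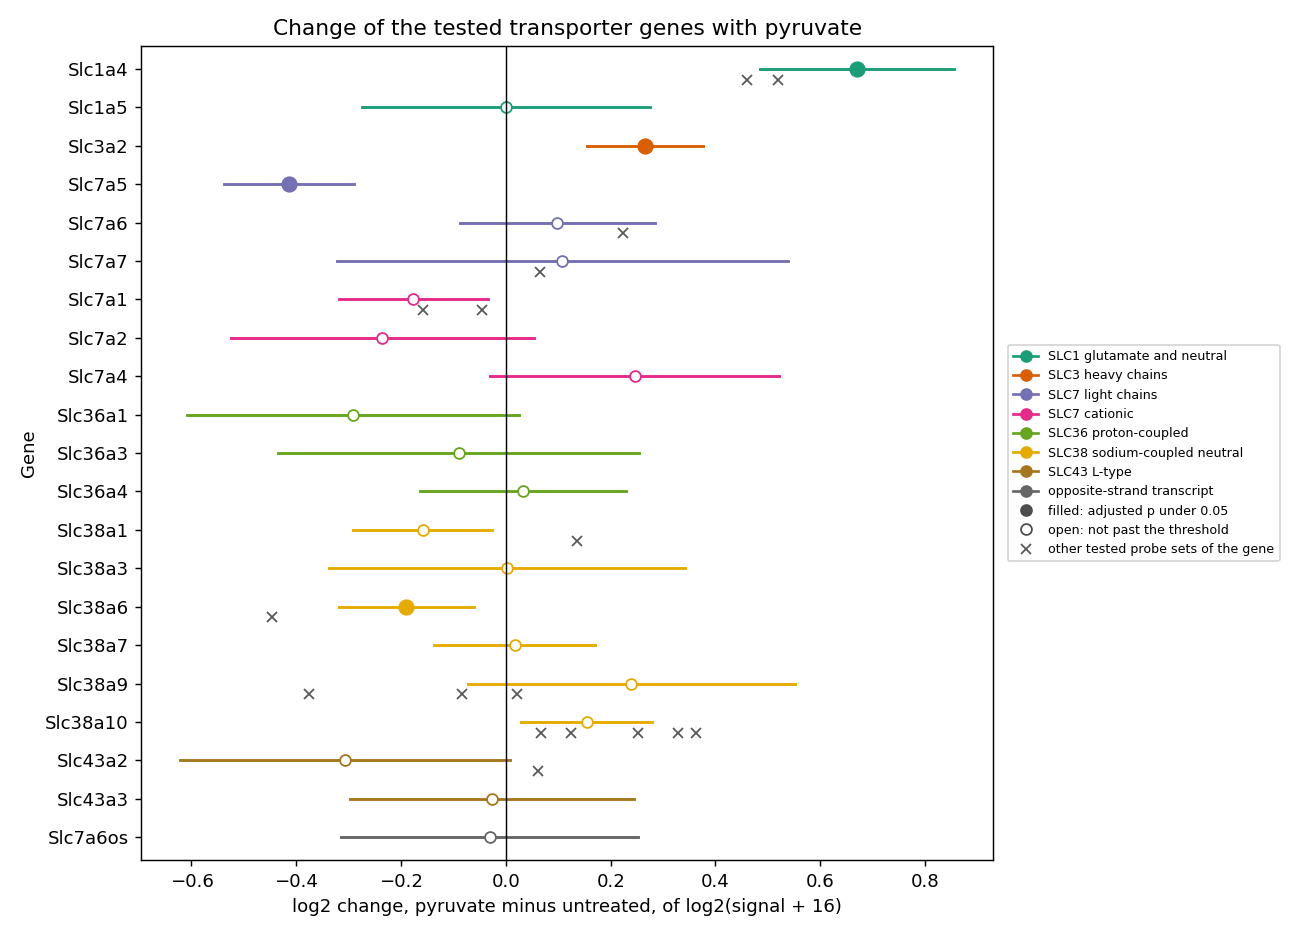
Log2 change, pyruvate minus untreated, on the log2(signal + 16) scale for the 21 tested genes, with the 95% interval of the brightest probe set as a bar and a filled point where the adjusted p was under 0.05. Crosses are the other tested probe sets: they share the side of the brightest one for Slc1a4, Slc7a1, Slc7a6, Slc7a7, Slc38a6 and Slc38a10 and lie on both sides of 0 for Slc38a1, Slc38a9 and Slc43a2.

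The 19 members below the signal filter had signals of 1.0 to 40.6 on the pyruvate arrays and 1.1 to 32.7 on the untreated arrays. In a fit without the filter, in which 12.9% of all 45037 probe sets were called, 1 of these 19 members passed. This was Slc38a4, which encodes SNAT4, a neutral amino acid carrier of liver and placenta. Its signals were 1.1, 1.3 and 4.8 with pyruvate, against 13.4, 10.7 and 10.5 in untreated cells (log2 change of -0.59, adjusted p = 0.015 in limma without the filter). The second Slc38a4 probe set had 0.5, 0.9 and 1.0 with pyruvate, against 13.4, 10.4 and 12.0 in untreated cells, and was at -0.73 (adjusted p = 0.0021). Both were lower on every pyruvate array, at signals near the floor of MAS5, where the values carry no fold. A dim second probe set of Slc1a5 behaved likewise, with 1.7, 5.0 and 2.6 with pyruvate against 19.6, 11.8 and 14.3 in untreated cells (-0.71, adjusted p = 0.013), unlike the brighter one above. These were 3 of the 46 member probe sets below the filter. Among all 22518 probe sets below it, 1.73% were called, 150 higher and 239 lower.

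Carriers of other families that move amino acids had 4 of 14 tested genes higher and 1 lower, 35.7%, against 35.1% of all genes, with a median log2 change of 0.10. Slc25a22, a mitochondrial glutamate carrier, rose by 0.49 to 151 ± 5.42 with pyruvate, against 104 ± 25.9 in untreated cells (SD, n = 3 arrays each). Its call was lost without the signal filter (adjusted p = 0.056, limma). Slc25a29, a mitochondrial carrier of basic amino acids, rose by 0.38, and Slc6a9, the glycine transporter GlyT1, by 0.37. Slc15a4, a histidine and peptide carrier of lysosomes, fell by 0.29.

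Genes through which mTORC1 senses amino acids at the lysosome had 10 of 34 tested genes higher and 5 lower, with a median of 0.08. Lamtor2 and Lamtor4, subunits of the Ragulator anchor on the lysosome, rose by 0.59 and 0.47. Of the other 3 subunits, Lamtor3 rose by 0.16, Lamtor5 fell by 0.19 with overlapping groups and Lamtor1 was at 0.09 without passing. The calls of Lamtor3 and Lamtor5 were close to the threshold (adjusted p = 0.042 and 0.046, limma). Both were lost without the signal filter (adjusted p = 0.086 and 0.12, limma). Tfe3, a transcription factor that mTORC1 holds in the cytoplasm, rose by 0.53. The sestrin genes Sesn3, Sesn1 and Sesn2 rose by 0.52, 0.43 and 0.285. Fnip1 and Fnip2, partners of folliculin, fell by 0.46 and 0.23, and Bmt2, the methionine-linked sensor SAMTOR, by 0.37. Seh1l fell by 0.27, while Wdr24, Sec13 and Akt1s1 rose by 0.46, 0.31 and 0.25. The count of lower genes was 3 in place of 5 without untreated replicate 1 or 2.

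Among amino acid response genes, 8 of 22 were higher and 1 lower, and the list median was 0.06. Atf4 itself, the factor at the head of this response, had a mean signal of 2676 ± 96.5 with pyruvate and 1936 ± 65.9 in untreated cells (SD, n = 3 arrays each), so it rose by 0.46. Atf5, a related factor, rose by 0.48 and Ddit3, which encodes CHOP, by 0.39. Phgdh (0.34), Ppp1r15a (0.37), Nupr1 (0.31), Cebpb (0.30) and Chac1 (0.29) were called higher as well. The call of Ppp1r15a was lost without the signal filter (adjusted p = 0.062, limma). Another 13 genes of the list did not pass, among them Asns (0.10), Psat1 (-0.13) and Trib3 (0.02). Aldh18a1, an enzyme of proline synthesis, was the 1 lower gene, at -0.22. That count was 0 without pyruvate replicate 1 and without any 1 of the untreated arrays, and Aldh18a1 had an adjusted p of 0.069 in limma without the signal filter. The adjusted limma p-values of the called genes named from these 3 lists lay between 4.5e-05 for Atf4 and 0.046 for Lamtor5.

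Enzymes that interconvert the transported amino acids had 8 of 20 higher and 2 lower, with a median of 0.16. Gclm, the regulatory subunit of glutamate-cysteine ligase, rose by 0.56, the branched-chain keto acid dehydrogenase subunit Bckdha by 0.46 and Got2, mitochondrial aspartate aminotransferase, by 0.35. Gpt2, which makes alanine from pyruvate and glutamate, fell by 0.78 and Glul, glutamine synthetase, by 0.40. The called shares of the mTORC1, response and interconversion lists were 44.1%, 40.9% and 50.0%. Each was above the 35.1% of all genes, where the 21 tested members were at 19.0%. Whether the lists differ from all genes was not tested.

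**Figure D4:**
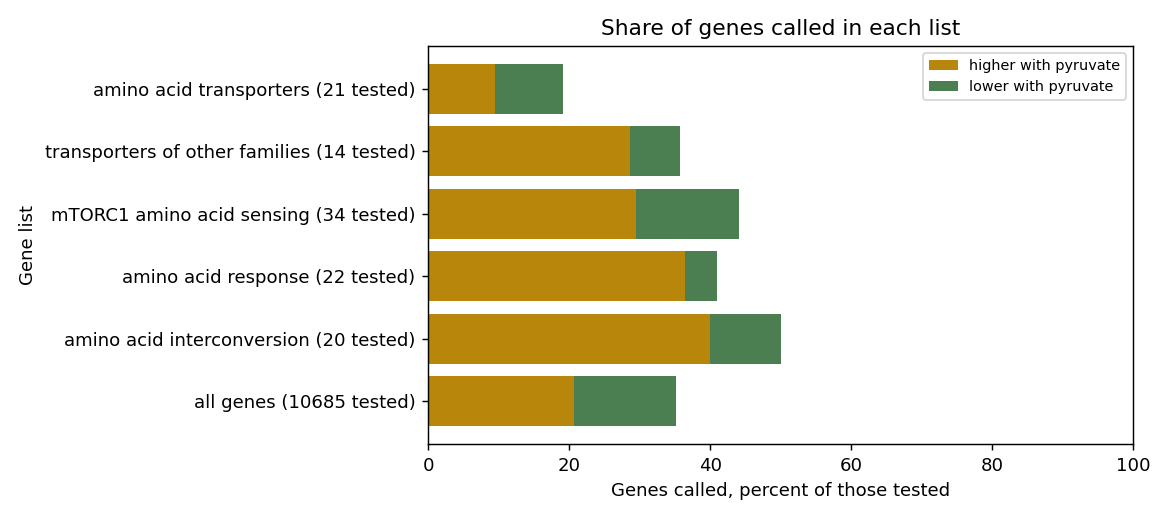
Percent of tested genes called higher or lower with pyruvate (adjusted p under 0.05, limma) in the 40-gene carrier group, in 4 lists of related genes and over all 10685 genes tested, with the number tested beside each name. The 40-gene group, which includes Slc7a6os, had 19.0% called, and the other lists between 35.7% and 50.0%, beside 35.1% of all genes.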

How the data were processed

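RNA of 6 C2C12 samples was labelled with biotin and measured on Affymetrix Mouse430_2 arrays. The deposited values are linear intensity from MAS5 (per the submitters' processing notes), with a trimmed mean of 150 on every array (2% taken from each end), so the authors had scaled them alike. This hides any shift in the amount of RNA per cell. Neither labels nor notes give the MAS5 version, and detection calls were not used. Arrays carry no read depth, and their number limits the precision. Arrays correlated at 0.985 to 0.991 within a group and 0.979 to 0.983 between groups.

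Of 45101 probe sets 64 controls were left out. Symbols came from the platform annotation, where 34945 probe sets had 1 symbol, 932 several and 9160 none, and all 40 members matched a RefSeq gene by Entrez identifier. Signals were taken as log2(signal + 16), the dimmer 50% of probe sets were left out, and limma 3.58.1 in R 4.3.3 (lmFit, eBayes with a trend, two-sided, Benjamini-Hochberg) compared the groups with no block. This fit was first tested on simulated data. Differences between 2 genes used exact permutation tests over arrays. Every member was to be named, and from each list up to 3 called genes in each direction by size of change. Further genes of the mTORC1 and response lists are named beside these. The members, lists, motifs and tests were chosen with earlier results of these data known. Figures were drawn with matplotlib 3.10.9.

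The alternatives were pseudocounts of 1 and 64, no filter and a filter at the 60th percentile, quantile, cyclic loess and median scaling, no variance trend, a block for the replicate number, a mean over probe sets, and each array left out in turn.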

Additional observations from a re-analysis of the deposited data

How the results depend on the processing

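Slc1a4, Slc3a2 and Slc7a5 kept their direction and passed the threshold under all 16 alternatives, with log2 changes of 0.54 to 0.72 for Slc1a4, 0.18 to 0.30 for Slc3a2 and -0.45 to -0.36 for Slc7a5. Slc38a6 kept its direction but missed the threshold in 8 of 16 alternatives, with adjusted p-values up to 0.11. Median centring, which left 1 member lower with a member median of 0.035, and limma without the variance trend, also with 1 lower, were among them. The mean over probe sets gave a median of -0.027. With single arrays left out, 1 to 3 members were lower and the median ran from -0.031 to 0.018. The causes were not tested. Samples with the same replicate number did not deviate together (correlations of -0.009, 0.014 and 0.021), so the numbers were not taken as pairs. With the replicate block 2 members were higher and 2 lower, but Slc38a6 lost its call (adjusted p = 0.052) and Slc7a1 gained one (adjusted p = 0.042). The block gave 2102 and 1483 genes over the whole array, against 2207 and 1546. Slc7a1 and Slc38a10, near the threshold, passed in 4 alternatives each, Slc43a2 and Slc38a9 in 1 each, and of the 266 values of uncalled members 25 turned their sign without passing. No call of a member reversed. Of the related lists, the 1 lower response gene became 0 with no filter, median centring or the mean over probe sets, 2 with the replicate block and 3 with quantile or loess scaling, and the 5 lower mTORC1 genes became 3 with median centring or no variance trend. The 1 lower carrier of other families became 0 with the mean over probe sets. Signals below the filter limit what can be said of the 19 untested members.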
